A study of Mus musculus with 5 samples.

Results

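Potassium channel genes, taken as every gene whose symbol starts with Kcn, were followed across the cell types of mouse interscapular brown adipose tissue (iBAT). The features files name 99 such genes among 32285. Of the 99, 65 had at least 20 UMIs in the matrix of WT and Ucp1-STX4KO mice and 68 in the aging matrix, and these are the members that were tested. A UMI, or unique molecular identifier, stands for 1 captured RNA molecule. In the first matrix 27 further members had 1 to 19 UMIs and 7 had 0, and in the aging matrix 31 had 1 to 19. The symbol rule also takes in channel accessory genes (Kcnab, Kcne, Kcnip, Kcnmb, Kcnrg) and 5 noncoding RNAs named after channel genes.

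The study profiled sorted nuclei of iBAT by single-nuclei RNA sequencing in 5 samples with 1 library each and no replicate. One matrix pools 3-month-old Ucp1-STX4KO mice, in which Cre under the Ucp1 promoter deletes floxed STX4 and so acts in cells that use that promoter, with WT littermates of the same age, where WT stands for mice with only the Cre or only the floxed alleles. The other pools untreated C57BL/6J mice of 2, 12 and 24 months, and all mice were male and on the C57BL/6J background. The methods give iBAT of 4 male mice as the starting tissue without dividing them among libraries, and nothing ties the number that ends each barcode, its suffix, to a sample, so genotypes and ages were not compared. Values are given for each matrix and, within it, by suffix.

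Potassium channels let potassium leave or enter a cell and so set its resting voltage and how it recovers from depolarization. Voltage-gated channels (Kcna to Kcnd, Kcnh and Kcnq), inward rectifiers (Kcnj), two-pore leak channels (Kcnk) and calcium-, sodium- or voltage-activated channels with large or small conductance (Kcnma, Kcnn, Kcnt) differ in what opens them, and accessory subunits change their gating. In brown fat the brown adipocytes sit beside capillaries with pericytes, arterioles with smooth muscle, sympathetic nerves wrapped by Schwann cells, fibroblasts and immune cells, each of which is known to use its own set of these channels.

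The first matrix holds 20307 barcodes and 116053743 UMIs, of which 76195924 came with suffix 1 and 39857819 with suffix 2, with medians of 5998 and 3284.5 UMIs per barcode. The aging matrix holds 30000 barcodes and 54656055 UMIs, with 14486189, 19278264 and 20891602 UMIs and medians of 891, 1635 and 1719.5 with suffixes 1, 2 and 3. Between 15 and 33 barcodes recurred in any 2 libraries, at most 0.421% of the smaller library. Nuclei were gated into types by lists of 5 to 10 marker genes, none of them a Kcn gene, and a single gate was passed by 18087 of 20307 nuclei in the first matrix and, in the aging matrix, by 23101 of the 27842 nuclei that had 200 UMIs. Although the labels name brown adipocytes, only the first matrix was mostly adipocyte nuclei, with 15563 of them, while the aging matrix had 1900 adipocyte and 16664 endothelial nuclei.

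In the first matrix 7 types had at least 50 nuclei, namely adipocytes, 294 endothelial nuclei, 345 pericytes, 937 fibroblasts, 323 skeletal muscle nuclei, 394 macrophages and 134 T lymphocytes. In the aging matrix these were adipocytes, endothelial nuclei, 2244 pericytes, 760 smooth muscle nuclei, 858 fibroblasts, 531 Schwann nuclei and 84 macrophages. In each of these 14 sets every marker of the type's own list was detected, and every one was higher there than in any other set of the matrix except 1 of the 10 pericyte markers in the aging matrix. Several types came mostly from 1 library. With suffix 2 of the first matrix came 315 of the 323 skeletal muscle nuclei and 121 of the 134 T lymphocytes, and with suffix 1 of the aging matrix 419 of the 531 Schwann nuclei and 521 of the 760 smooth muscle nuclei. Values of these types therefore rest largely on 1 library, and a difference between the libraries cannot be told apart from genotype or age.

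The level of a gene in a type is its UMI sum per 1000000 UMIs of all gated nuclei of that type (CPM), followed in parentheses by exact 95% Poisson limits, which cover counting error only. A gene was called raised in a type where its CPM was at least 4 times the median CPM that the other types had, after adding 5 CPM to each side, where it had at least 20 UMIs in the type, and where it was above that median in every library with 50 nuclei of the type. The folds given below as times the median include the added 5 CPM, and the member with the highest such fold is called the leading one. With 1 pooled sample per matrix this is a rule of size and not a test. A 3′ count is not scaled to gene length, so levels are compared between types for the same gene and not between genes.

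Of the 65 members tested in the first matrix 23 (35.4%) were raised in at least 1 type, against 16.7% of all 18248 genes with 20 UMIs. In the aging matrix it was 24 of 68 (35.3%), against 14.8% of 18473 genes. Most were raised in a single type, 18 of the 23 and 14 of the 24. Kcnq5 in the first matrix and Kcnd3 in the aging matrix were among those raised in 3 types. Of the silent Kv subunits (Kcnf, Kcng, Kcns, Kcnv), 5 and 3 were tested and none was raised in either matrix.

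Skeletal muscle, smooth muscle and Schwann nuclei held the highest shares. In skeletal muscle 10 members were raised (15.4%, against 3.63% of all genes), in smooth muscle 9 (13.2% against 2.6%) and in Schwann nuclei 8 (11.8% against 3.23%). Pericytes followed with 7 in the first matrix (10.8% against 3.29%) and 6 in the aging matrix (8.82% against 2.39%), and fibroblasts with 5 (7.69% against 3.51%) and 6 (8.82% against 3.19%). These shares were all above the background share of the same type.

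In the remaining types the counts were small. Adipocytes had 2 raised members in the first matrix (3.08% against 1.36%) and 3 in the aging matrix (4.41% against 3.28%), endothelial nuclei 1 (1.54% against 3.15%) and 3 (4.41% against 2.3%). Macrophages had 4 (6.15% against 4.13%) and 1 (1.47% against 1.68%), and T lymphocytes 1 (1.54% against 2.26%). Since 1 gene of 65 makes 1.54%, these shares lie within a few genes of the background and are not results about the family.

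**Figure D1:**
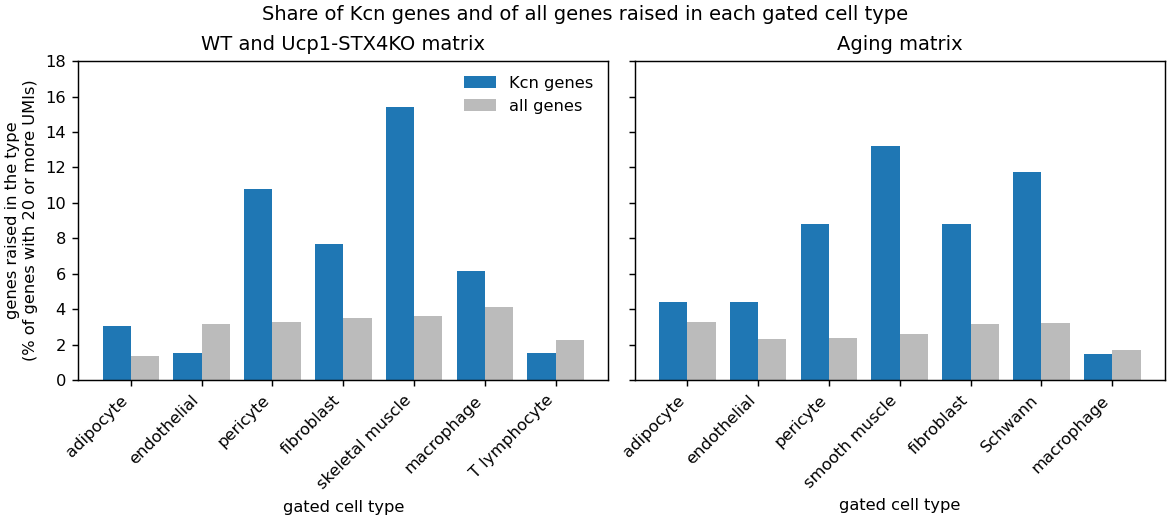
Bars give the percent of Kcn genes (blue) and of all genes (grey) with 20 or more UMIs that were raised in each gated type, for the WT and Ucp1-STX4KO matrix (left) and the aging matrix (right). The Kcn bars are highest for skeletal muscle (15.4%) and smooth muscle (13.2%), while the grey bars stay between 1.36 and 4.13%.

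**Figure D2:**
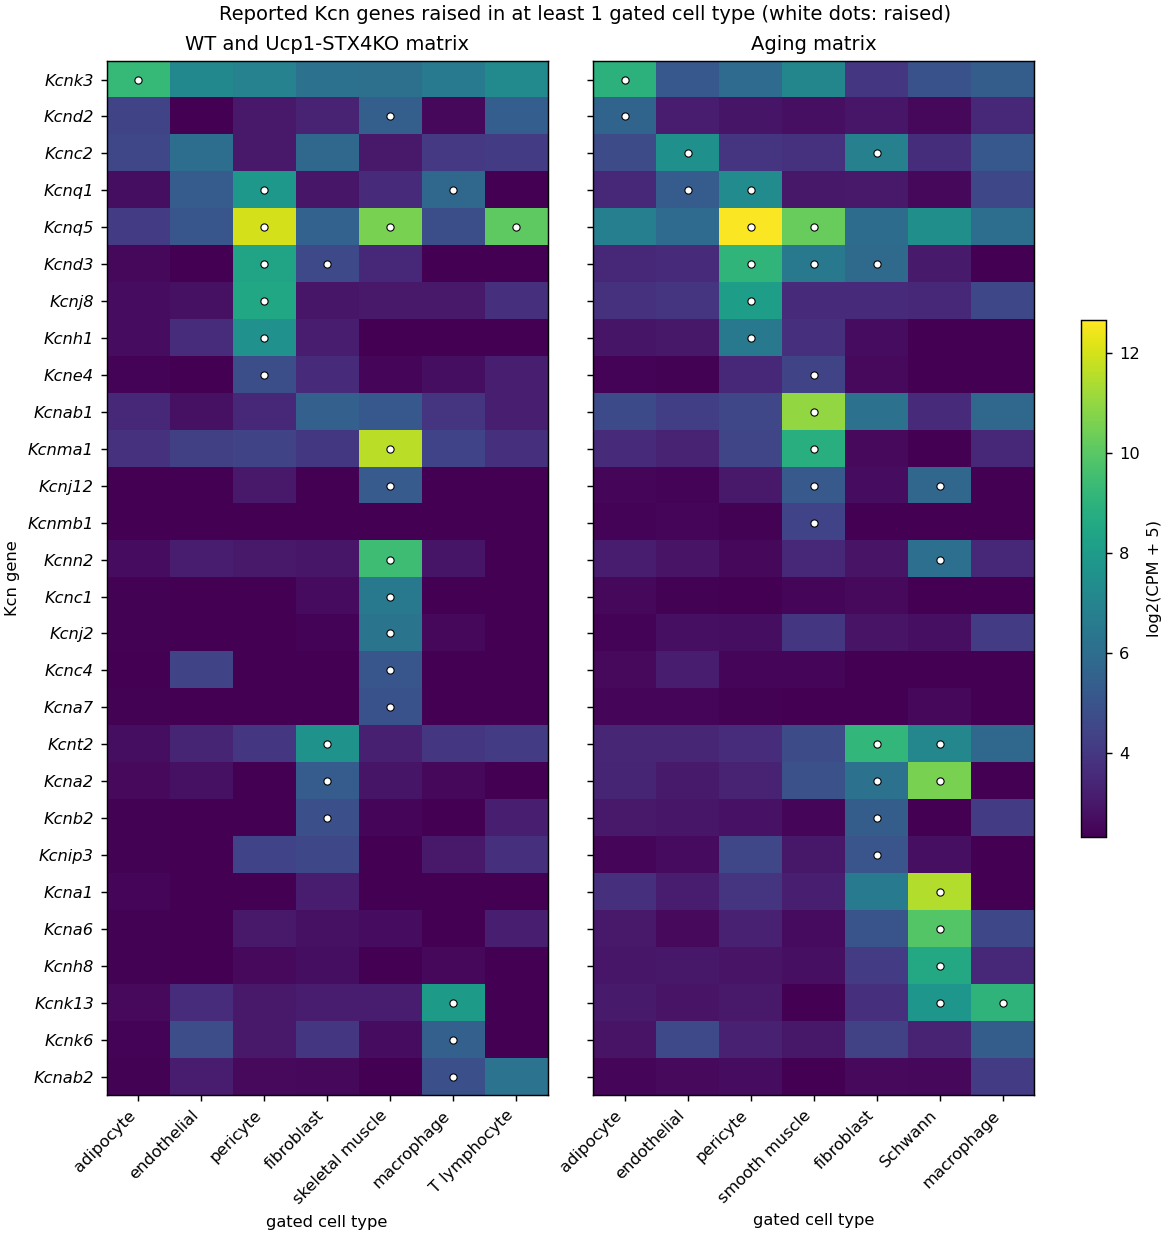
Each row is a Kcn gene that was raised in at least 1 type and is reported here, and each column a gated type, coloured by log2 of its CPM plus 5, with a white dot where the gene was raised. Colours are to be read along a row: Kcnq5 is bright in pericytes, the muscle types and T lymphocytes, Kcna1, Kcna2 and Kcna6 in Schwann nuclei, and Kcnk3 is brightest in adipocytes in both matrices.

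Kcnk3 was the leading potassium channel gene of adipocyte nuclei by its fold over the other types. It encodes the two-pore leak channel TASK-1 and lies on chr5:30588170-30625271 (GRCm38, plus strand). In adipocyte nuclei it stood at 606 CPM (601 to 611) in the first matrix, 5.55 times the median of the other types, and at 495 CPM (475 to 515) in the aging matrix, 12.9 times. By library the first matrix had 471 CPM with suffix 1 and 946 CPM with suffix 2, and it was 489, 505 and 486 CPM with suffixes 1, 2 and 3 in the aging matrix. The 3 aging libraries overlapped within counting error, as did suffix 1 of the first matrix with them, while suffix 2 of the first matrix stood above all 4. Within the range of UMIs and genes that the methods state, which leaves only suffix 2 of the first matrix, Kcnk3 was 3.40 times the median there and its call was lost. At an equal depth of 500 UMIs per nucleus, 23.5% (22.8 to 24.1%) of adipocyte nuclei in the first matrix and 21.2% (19.3 to 23.1%) in the aging matrix held a Kcnk3 UMI (exact Clopper-Pearson limits), against 81.1% and 61.5% at full depth.

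Other types also carried Kcnk3 UMIs, at 65.9 to 149.8 CPM in the first matrix and 10.7 to 129 CPM in the aging matrix. These levels were set beside 2 measures of adipocyte RNA in the same nuclei, the adipocyte marker list without Pparg, which endothelial cells use too, and Ucp1, which took no part in the gates. All 10 adipocyte markers had UMIs in every other type, Pparg or Acsl1 the most abundant. In the first matrix Kcnk3 was at 0.109 to 0.247 of its adipocyte level in the 6 other types, the 9 markers were at 0.153 to 0.258 and Ucp1 at 0.149 to 0.434, and in each of the 6, over both libraries, Kcnk3 was below both. Within suffix 2 alone it was above the markers in pericytes, at 0.184 against 0.174. In the aging matrix smooth muscle stood apart. There Kcnk3 was at 129 CPM (113 to 148), 0.261 of the adipocyte level, while the 9 markers were at 0.0376 and Ucp1 at 0.0268, and it stood at 132, 143 and 113 CPM with suffixes 1, 2 and 3. Pericytes of the aging matrix had 56.9 CPM (50.8 to 63.6), 0.115 of the adipocyte level, with the markers at 0.0423 and Ucp1 at 0.0411. Kcnk3 in these mural nuclei was above both measures in each of the 3 libraries, while in endothelial nuclei, at 0.0621 against 0.0890 and 0.0924, and in fibroblasts, at 0.0215 against 0.0361 and 0.0290, it was below both over all libraries. Within suffix 1 it was above Ucp1 in endothelial nuclei, at 0.0422 against 0.0324, and in fibroblasts, at 0.00753 against 0.00217. Macrophages, with 84 nuclei, had a Kcnk3 ratio of 0.0746, between the markers at 0.0629 and Ucp1 at 0.0829. Schwann nuclei had a Kcnk3 ratio of 0.0508 against 0.0331 and 0.0365, but with suffixes 2 and 3 it was below Ucp1, at 0.0658 against 0.0786 and 0.0829 against 0.217. The list without Pparg was chosen after its values were seen. With all 10 markers, Kcnk3 in smooth muscle stayed above the list, which was at 0.127, in each library, but in pericytes the direction turned in each library, with the list at 0.148 over all 3.

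**Figure D3:**
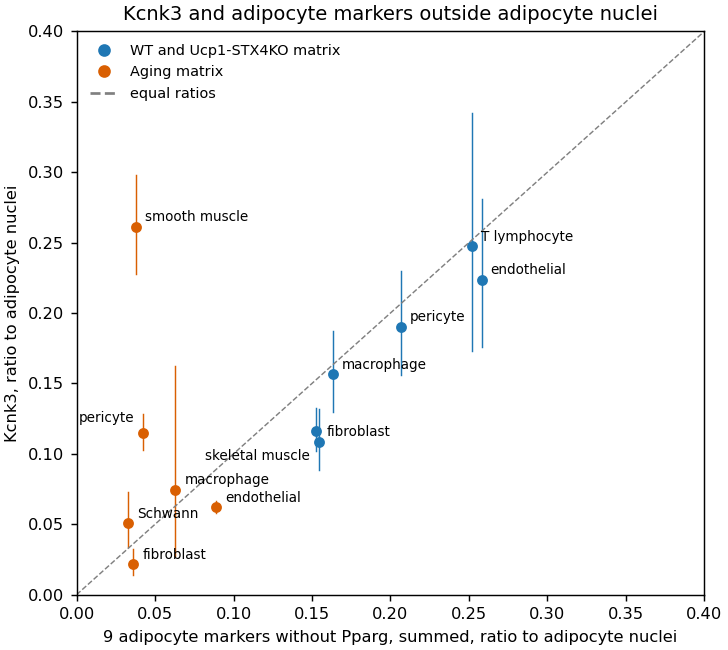
Each point is a gated type other than adipocytes, with the summed level of 9 adipocyte markers on the horizontal axis and of Kcnk3 on the vertical axis, both as a ratio to adipocyte nuclei of the same matrix. Vertical lines are 95% Poisson limits of the Kcnk3 count, and the dashed line marks equal ratios. Smooth muscle (0.261 against 0.0376) and pericytes (0.115 against 0.0423) of the aging matrix lie farthest above the line, Schwann nuclei (0.0508 against 0.0331) and macrophages (0.0746 against 0.0629) slightly above it, and the types of the first matrix with 50 nuclei lie below it.

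Kcnd2, which encodes a Kv4 channel of fast inactivating currents, was raised in adipocytes of the aging matrix at 45.3 CPM (39.5 to 51.8), against 0.868 to 6.15 CPM elsewhere. Most of it came from 1 library, with 87.1, 16.2 and 13.6 CPM with suffixes 1, 2 and 3, and its call was lost without suffix 1. In adipocytes of the first matrix Kcnd2 had 20.5 CPM with suffix 1 and 8.11 CPM with suffix 2. Kcns3, a silent subunit that joins Kv2 channels, was not raised by the rule, but stood at 19.7 CPM (18.8 to 20.6) in adipocytes of the first matrix against 0 to 12.5 CPM elsewhere, and at 26.1 CPM (21.7 to 31.1) against 0 to 15.3 CPM in the aging matrix. By library Kcns3 had 18.8 and 22.1 CPM with suffixes 1 and 2 of the first matrix. In the aging matrix it had 36, 13.1 and 33.5 CPM with suffixes 1, 2 and 3, so suffix 2 lay within the range of the other types. Kcnk2, another two-pore channel gene, was at 4.97 and 21.7 CPM (17.8 to 26.3) in adipocytes and did not reach the rule in either matrix.

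**Figure D4:**
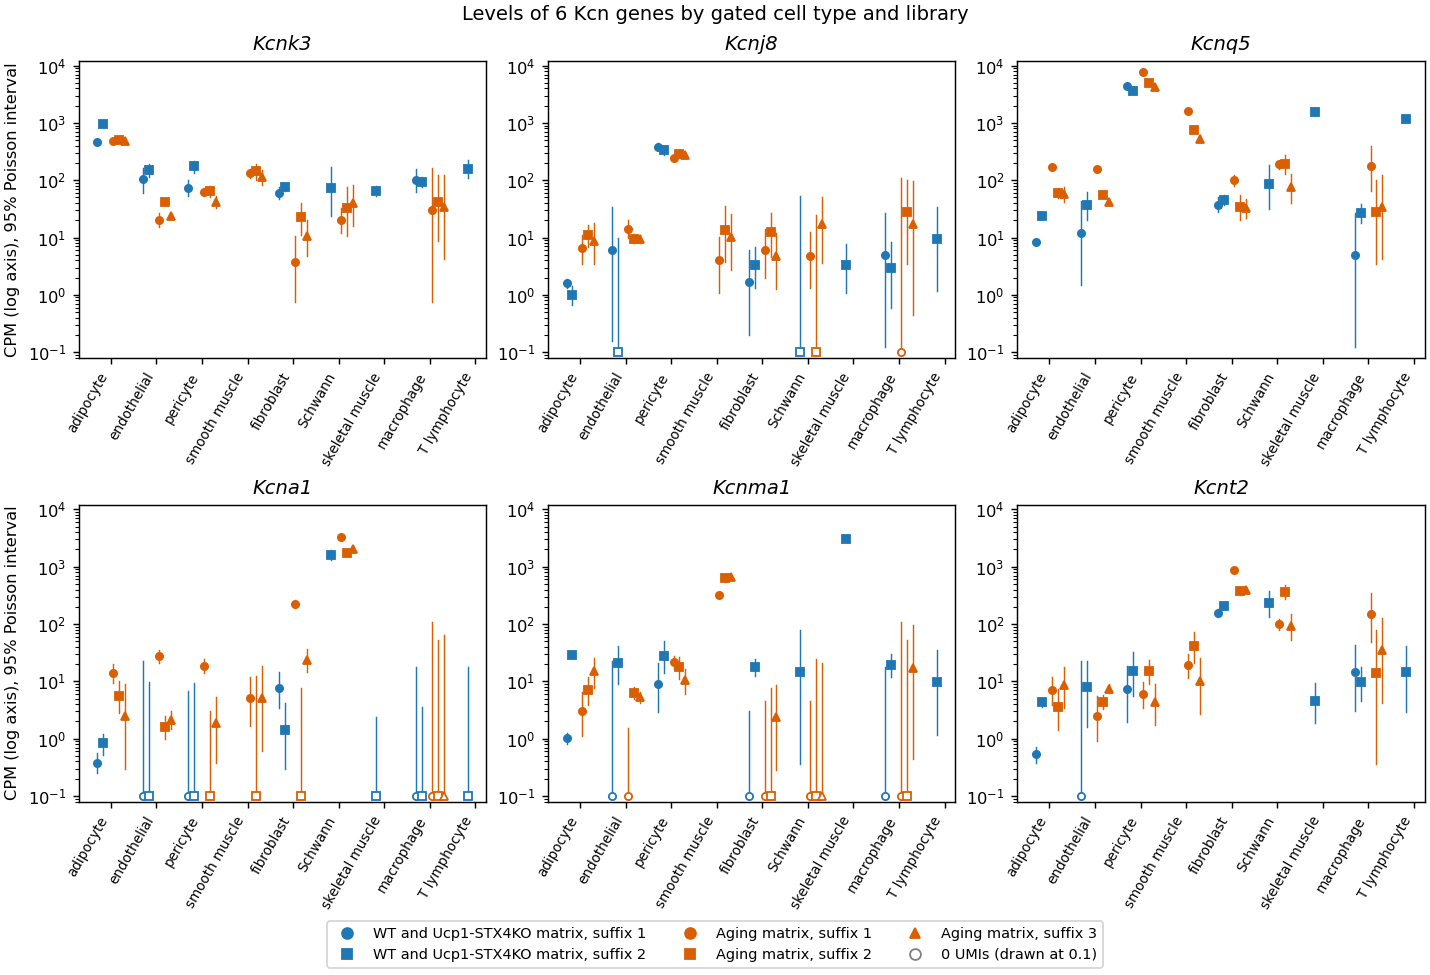
Points give the CPM of 6 Kcn genes in each gated type and library (log axis), for libraries with 20 or more nuclei of the type, with 95% Poisson limits, in blue for the WT and Ucp1-STX4KO matrix and orange for the aging matrix. Open symbols at the bottom are counts of 0. Within its leading type each gene is high in every library shown, for example Kcnj8 in pericytes between 243 and 384 CPM.

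Pericytes held a set of 6 members that was raised in both matrices, among them Kcnj8, Kcnq1, Kcnq5, Kcnd3 and Kcnh1, and these were 6 of the 7 raised in the first matrix and 6 of 6 in the aging matrix. Kcnj8 encodes Kir6.1, the pore of the vascular ATP-sensitive potassium channel, and its partner Abcc9 encodes the sulfonylurea receptor SUR2 of the same channel. Both lie on the minus strand of chromosome 6, Kcnj8 at chr6:142564837-142571614 and Abcc9 at chr6:142587862-142702315. Since both subunit genes were high in the same nuclei, the 250 bases before the RefSeq start of each are shown (GRCm38.p6, minus strand, chr6:142571615-142571864 and chr6:142702275-142702524), with capitals marking the motif GGGCGG on either strand:
Kcnj8: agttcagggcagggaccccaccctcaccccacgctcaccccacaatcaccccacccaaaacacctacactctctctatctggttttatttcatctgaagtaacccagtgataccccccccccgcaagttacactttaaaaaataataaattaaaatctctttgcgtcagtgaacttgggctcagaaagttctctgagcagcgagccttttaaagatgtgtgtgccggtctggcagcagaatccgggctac
Abcc9: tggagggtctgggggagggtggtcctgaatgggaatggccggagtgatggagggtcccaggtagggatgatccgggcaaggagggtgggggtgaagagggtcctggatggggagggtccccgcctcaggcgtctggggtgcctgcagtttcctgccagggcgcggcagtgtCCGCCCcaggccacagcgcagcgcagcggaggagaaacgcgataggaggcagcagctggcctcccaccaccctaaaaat
Both strands were searched for the TATA box TATAAA, held by 12.4% of all 32851 promoter windows of this length, the CCAAT box, held by 33.8%, the GC box GGGCGG, held by 32.7%, and the CArG box, held by 1.47%. The Abcc9 window holds 1 GC box, and no other match was found in either window. The Abcc9 window overlaps the end of the gene interval given above, because the RefSeq start lies inside that interval. The windows differ in base composition, with 49.2% G or C for Kcnj8 and 66.8% for Abcc9, where the median of all promoters is 52.4%.

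Kcnj8 stood at 362 CPM (324 to 402) in pericytes of the first matrix and 262 CPM (249 to 276) in those of the aging matrix, 46.1 and 20.6 times the median of the other types. By library it had 384 CPM with suffix 1 and 331 CPM with suffix 2, and in the aging matrix 243, 287 and 275 CPM with suffixes 1, 2 and 3, and in every library pericytes were above all other types. Elsewhere it was at 1.43 to 8.32 CPM and 6.07 to 18.5 CPM. Abcc9 followed the same pattern, with 3013 CPM (2903 to 3126) and 2691 CPM (2648 to 2734) in pericytes. In smooth muscle both were low, Kcnj8 at 7.12 CPM (3.68 to 12.4) and Abcc9 at 58.7 CPM (47.7 to 71.5), so the pair separated the mural types. At 500 UMIs per nucleus 15.4% (11.7 to 19.6%) and 10.4% (9.18 to 11.8%) of pericytes held a Kcnj8 UMI, against 0.0901% (0.0493 to 0.151%) and 0.584% (0.292 to 1.04%) of adipocytes. Macrophages of the aging matrix had 3 nuclei of 84 with a UMI, 3.57% (0.743 to 10.1%), whose limits reach those of the pericytes.

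Kcnq5, a KCNQ channel gene of the voltage-gated M-current class, was counted in nearly every pericyte. It stood at 4061 CPM (3934 to 4192) in the first matrix, where 332 of 345 pericytes had a UMI and 1 nucleus had 57, and at 6203 CPM (6137 to 6269) in the aging matrix, where 2188 of 2244 did. By library it had 4437 CPM with suffix 1 and 3540.3 CPM with suffix 2, and in the aging matrix 7882, 5002 and 4303 CPM with suffixes 1, 2 and 3. The other types outside muscle and T lymphocytes had 12.6 to 42.6 CPM in the first matrix and 56.4 to 172 CPM in the aging matrix. With suffix 1 of the aging matrix, where pericytes were highest, Kcnq5 was also highest in adipocytes (171 CPM) and endothelial nuclei (158 CPM). How far free RNA contributes to those low levels was not tested.

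Kcnq1, Kcnh1 and Kcnd3 were highest in pericytes in both matrices. Kcnq1 had 221 CPM (192 to 253) and 155 CPM (145 to 166) and Kcnh1, of the ether-à-go-go channels, 182 CPM (156 to 211) and 86.6 CPM (79 to 94.8). Kcnd3, a Kv4 channel gene, had 326 CPM (290.5 to 364) and 535 CPM (516 to 555). In pericytes Kcnd3 was at 475 CPM with suffix 1 and 119 CPM with suffix 2, and in the aging matrix 420.4, 281 and 912 CPM with suffixes 1, 2 and 3. Kcnq1 was at 257 CPM with suffix 1 and 172 CPM with suffix 2, and in the aging matrix 158, 289 and 50.4 CPM with suffixes 1, 2 and 3, so the aging library highest in Kcnd3 was lowest in Kcnq1. Kcnh1 was at 193 CPM with suffix 1 and 167 CPM with suffix 2, and in the aging matrix 92.4, 53.5 and 101 CPM with suffixes 1, 2 and 3. Like Kcnd3 it was lowest with suffix 2 of the aging matrix, but suffixes 3 and 1 were within counting error of each other, at a ratio of 1.10 (0.896 to 1.34). With suffix 2 of the first matrix all 3 genes were lower than with suffix 1, Kcnh1 within counting error.

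Kcnq1 overlaps the noncoding antisense RNA Kcnq1ot1 (chr7:143203458-143296549, minus strand), and whether the counting used strand is not given in the sources used here, so reads of the pair may be mixed. Kcnq1ot1 itself was not raised in any type, with 366 CPM in pericytes and 379 to 756 CPM in the other types of the first matrix, a pattern unlike that of Kcnq1. Kcne4, an accessory subunit that binds KCNQ1 and Kv1 channels, was raised in pericytes of the first matrix only, at 23.3 CPM (14.6 to 35.2) from 22 UMIs, a call lost without either library and without the deepest 10% of nuclei, and had 5.98 CPM (4.12 to 8.40) in those of the aging matrix.

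Smooth muscle nuclei of the aging matrix had 9 raised members, including Kcnab1, Kcnma1, Kcnq5, Kcnd3, Kcnj12, Kcnmb1 and Kcne4. Among them were both genes of the vascular BK channel, a large-conductance channel opened by calcium and voltage, Kcnma1 for its pore (chr14:23289431-24014491, minus strand) and Kcnmb1 for its smooth muscle beta subunit (chr11:33963013-33973641, plus strand). The 250 bases before the RefSeq start of each are shown (GRCm38.p6, chr14:24004206-24004455 on the minus strand and chr11:33962763-33963012 on the plus strand), because pore and beta subunit were raised in the same nuclei. The pore was also raised in skeletal muscle of the first matrix, where Kcnmb1 had under 20 UMIs and was not tested. Capitals again mark GGGCGG on either strand:
Kcnma1: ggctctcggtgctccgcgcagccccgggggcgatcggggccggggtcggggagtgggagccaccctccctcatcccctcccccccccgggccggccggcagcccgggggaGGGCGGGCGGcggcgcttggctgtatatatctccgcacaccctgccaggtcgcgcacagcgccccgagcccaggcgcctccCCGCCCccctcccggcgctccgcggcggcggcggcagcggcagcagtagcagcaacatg
Kcnmb1: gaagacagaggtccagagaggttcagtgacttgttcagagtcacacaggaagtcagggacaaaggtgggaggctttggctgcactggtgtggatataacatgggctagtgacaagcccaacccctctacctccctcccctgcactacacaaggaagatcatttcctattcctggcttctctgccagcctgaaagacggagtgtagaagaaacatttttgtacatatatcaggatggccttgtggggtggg
The Kcnma1 window holds 3 GC boxes, of which 2 overlap, and has 79.2% G or C. It lies wholly inside the Kcnma1 interval given above, so it does not precede the start of that interval on the minus strand. The Kcnmb1 window holds none of the motifs searched and has 50.8% G or C. No CArG box was found in any of the 4 windows.

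Kcnma1 stood at 454 CPM (423 to 488) in smooth muscle, 42.9 times the median of the other types, which had 0 to 17.4 CPM. By library it was 317, 636 and 664 CPM with suffixes 1, 2 and 3, lowest in the library that gave most of the nuclei. Kcnmb1 had 27 UMIs in as many nuclei, 16 CPM (10.6 to 23.3), and at most 0.543 CPM in the other types, with 14.1, 27.2 and 12.6 CPM with suffixes 1, 2 and 3. Kcnmb1 lies inside Kcnip1, which is on the opposite strand and had 2.97 CPM in smooth muscle, and reads of the pair cannot be told apart where strand was not used. The Kcnmb1 call rested on few UMIs and was lost without suffix 1, without suffix 2 and without the deepest 10% of nuclei.

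Kcnab1, a beta subunit that speeds inactivation of Kv1 channels, was the member with the highest ratio in smooth muscle. It stood at 2024 CPM (1957 to 2093), 84.9 times the median, with 2043, 1412 and 2430.3 CPM with suffixes 1, 2 and 3, and 510 of 760 nuclei had a UMI. Fibroblasts were next with 69.1 CPM (58.4 to 81.1). The 11 smooth muscle nuclei of the first matrix, too few for the rule, had 1537 CPM (1117 to 2064) from 4 nuclei. Kcnma1 had 349 CPM (168 to 643) there and Kcnq5 1188 CPM (823 to 1660.0), and these limits hold the levels of the aging matrix. Kcnmb1 had 0 UMIs in the 11 nuclei, which allows up to 105 CPM.

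Of the members that smooth muscle shared with pericytes, Kcnq5 was at 1215 CPM (1163 to 1269) and Kcnd3 at 85.4 CPM (72 to 101). All 10 pericyte markers were also detected in smooth muscle nuclei, at a summed 1992 CPM against 7723 CPM in pericytes, most of it Notch3 (1256 CPM), a gene that arterial smooth muscle is known to use. By library the list stood at 2142, 1554 and 1942 CPM. Kcnj8 and Abcc9, the pericyte pair, were at 0.0272 and 0.0218 of their pericyte levels in these nuclei, Kcnq5 at 0.196 and Kcnd3 at 0.160, larger shares than the pair kept and smaller than the 0.258 of the pericyte list. Kcnd3 stood at 38.2, 54.4 and 226 CPM with suffixes 1, 2 and 3, highest in the library where pericytes were highest too. Kcnj12, an inward rectifier gene, had 32 CPM (24.1 to 41.8) and Kcne4 16.6 CPM (11 to 24), a call lost without suffix 1, without suffix 2 and without the deepest 10% of nuclei.

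Skeletal muscle nuclei, gated in the first matrix and nearly all with suffix 2, had 10 raised members. Their own markers summed to 94330 CPM, led by Ttn. Kcnma1 was at 3049 CPM (2963 to 3137), 170.4 times the median of the other types, and 313 of 323 nuclei had a UMI. Kcnn2, a small-conductance calcium-activated channel gene, was at 704 CPM (663 to 746), and Kcnq5 at 1543 CPM (1482 to 1606). The 8 nuclei with suffix 1 gave 2374, 783 and 2296 CPM for the 3 genes, so they were high in both libraries.

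The inward rectifiers of muscle were raised too, Kcnj2 (Kir2.1) at 72.9 CPM (60.1 to 87.6) and Kcnj12 (Kir2.2) at 34.5 CPM (25.9 to 45.1), and so were the fast delayed rectifier genes of the Kv3 group, Kcnc1 at 87 CPM (73 to 103) and Kcnc4 at 29.4 CPM (21.5 to 39.2). Kcna7, a Kv1 gene known from muscle, had 25.6 CPM (18.3 to 34.8). Kcnj2, Kcnj12, Kcnc1 and Kcna7 had at most 3.17 CPM in the 6 other types with 50 nuclei, and Kcnc4 also had 16.5 CPM in endothelial nuclei. The calls of Kcnj2, Kcnj12, Kcnc1, Kcnc4 and Kcna7 were lost at 500 UMIs per nucleus. Those of Kcnj12, Kcnc4 and Kcna7 were also lost with 20 CPM added in place of 5. Kcnd2 met the rule at 38.4 CPM (29.3 to 49.4), but its 60 UMIs came from 8 nuclei, 1 of which held 17, and the call was lost without the deepest 10% of nuclei. Kcnj11, the pore of the muscle and islet ATP-sensitive channel, was at 14.7 CPM (9.33 to 22.1), 3.83 times the median and so just under the rule, while its neighbour Abcc8 was at 1.28 CPM and Abcc9 at 271 CPM (246 to 298).

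Schwann nuclei of the aging matrix had 8 raised members, led by 3 Kv1 channel genes, Kcna1, Kcna2 and Kcna6. Kcna1 (chr6:126640397-126646384) and Kcna6 (chr6:126708329-126740674) both lie on the minus strand of chromosome 6, and Kcna2 (chr3:107101146-107115005) is on chromosome 3. Kcna1 was at 2865 CPM (2768 to 2965), 253 times the median of the other types, Kcna2 at 1539 CPM (1469 to 1613), 149 times, and Kcna6 at 946 CPM (891 to 1004), 107 times. By library Kcna1 had 3239, 1749.9 and 2047 CPM with suffixes 1, 2 and 3, Kcna2 1711, 1397 and 845 CPM with suffixes 1, 2 and 3 and Kcna6 1046, 752 and 638 CPM with suffixes 1, 2 and 3. All 3 were highest with suffix 1, which gave 419 of the 531 nuclei, and high in each library.

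The other member of the chromosome 6 cluster, Kcna5, was not high in Schwann nuclei (2.60 CPM), and neither were the chromosome 3 neighbours of Kcna2, Kcna3 and Kcna10, which had under 20 UMIs in either matrix. The 41 Schwann nuclei of the first matrix, under the minimum of 50, had 1800.2 CPM (1540.5 to 2091) of Kcna1, 1263 CPM (1047 to 1511) of Kcna2, 895 CPM (715 to 1106) of Kcna6 and 526 CPM (391 to 694) of Kcnh8. In the 7 larger types of that matrix Kcna1 had at most 3.63 and Kcna6 at most 4.16 CPM. The Kv1 trio was therefore high in the Schwann gate of both matrices.

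Kcnh8, an ether-à-go-go-like channel gene, was at 376 CPM (341 to 413), with 408, 393 and 207 CPM with suffixes 1, 2 and 3, and at most 13 CPM in the other types. Kcnk13, a two-pore channel gene, was at 211 CPM (185 to 239) and higher in macrophages, whose markers were nearly absent from Schwann nuclei (3 of 8 with a UMI, 2.60 CPM in sum, with Mrc1, Adgre1, F13a1, C1qa and Fcgr1 at 0). Kcnj12 had 47.7 CPM (36 to 62.1), a call lost without suffix 1, Kcnn2 64.2 CPM (50.4 to 80.6) and Kcnt2 134 CPM (113 to 156). Kcnt2 was at 0.232 of its fibroblast level, where the fibroblast list, 9 of 10 markers with a UMI and 1623 CPM in sum, mostly Col3a1 at 1221 CPM and with Pi16 at 0, was at 0.218. By library gene and list did not go together, with Kcnt2 at 0.113, 0.977 and 0.236 of its fibroblast level with suffixes 1, 2 and 3 and the list at 0.194, 0.190 and 0.117. Kcnn2 and Kcnt2 were highest with suffix 2, at 139.7 and 366 CPM, where the Kv1 genes were not. Kcnj10, the Kir4.1 gene of glia, had 19 UMIs here, 16.5 CPM (9.93 to 25.7), and too few for the rule.

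Kcnt2, a sodium-activated channel gene, led the fibroblasts of both matrices. It was at 187 CPM (172 to 202) in the first matrix and 575 CPM (543 to 608) in the aging matrix, 14.8 and 30.4 times the median of the other types. By library it had 157 CPM with suffix 1 and 204 CPM with suffix 2, and in the aging matrix 888, 374 and 390.3 CPM with suffixes 1, 2 and 3, so suffix 1 of the aging matrix was above the others. In both matrices 263 of 937 and 312 of 858 fibroblasts had a UMI. Schwann nuclei were next in the aging matrix, and adipocytes had 1.60 and 5.85 CPM.

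Kcna2 was also raised in fibroblasts of both matrices, but in different company. In the first matrix it was at 31 CPM with suffix 1 and 38.3 CPM with suffix 2, while Kcna1 and Kcna6, which go with it in Schwann nuclei, were at 3.63 and 1.81 CPM over both. In the aging matrix it was at 162, 10.2 and 10.5 CPM with suffixes 1, 2 and 3, and Kcna1 at 223 and Kcna6 at 71.1 CPM stood with it in suffix 1. The Schwann list summed to 2106 CPM in the fibroblasts of that library (10 of 10 markers, most of all Scn7a at 813 CPM) against 481 and 418 CPM with suffixes 2 and 3, where Sox10 and Gpr37l1 were at 0. With suffix 1 the fibroblast levels of Kcna1, Kcna2 and Kcna6 were 0.0689, 0.0946 and 0.0680 of the Schwann levels of that library, and the Schwann list was at 0.0794. Without suffix 1 the call of Kcna2 in fibroblasts of the aging matrix was lost. In the fibroblasts of the first matrix the Schwann list summed to 469 CPM with Sox10 at 0.

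Kcnb2, a delayed-rectifier channel gene of the Kv2 group, was at 24.2 CPM (19.2 to 30.1) and 36.2 CPM (28.6 to 45.1) in fibroblasts and at most 4.16 and 12.3 CPM elsewhere. It came from few nuclei, 18 in the first matrix with up to 18 UMIs each and 31 in the aging matrix, and it stood at 52 CPM with suffix 1 and 8.51 CPM with suffix 2 in the first matrix. With suffix 3 of the aging matrix it was nearly absent (1.17 CPM, against 66.2 and 47.1 CPM). The Kcnb2 call was lost without suffix 1 in either matrix and without suffix 2 of the aging matrix. Kcnd3 was at 19.4 CPM (14.9 to 24.7) and 54.2 CPM (44.9 to 65), below its pericyte level in both matrices. These levels rested on single libraries, with 45.2 CPM with suffix 1 and 4.73 CPM with suffix 2, and in the aging matrix 41.7, 8.19 and 92.6 CPM with suffixes 1, 2 and 3, and the fibroblast call was lost without suffix 1 of the first matrix and without suffix 3 of the aging matrix. The pericyte list summed to 633 and 282 CPM in the fibroblasts of suffixes 1 and 2 of the first matrix, led by Pdgfrb, 0.103 and 0.0634 of its pericyte level, where Kcnd3 was at 0.0952 and 0.0399. For suffixes 1, 2 and 3 of the aging matrix the list was at 0.0762, 0.122 and 0.118 and Kcnd3 at 0.0992, 0.0291 and 0.102. The part of pericyte RNA in the fibroblast values was not tested. Kcnip3, a calcium-binding Kv4 partner, was at 27.8 CPM (21.2 to 35.8) in the aging matrix, and Kcnc2, a Kv3 gene, at 109 CPM (95.9 to 124). Both calls were lost with 20 CPM added in place of 5, and that of Kcnip3 also within the stated range of UMIs and genes and at 500 UMIs per nucleus. Kcnc2 was higher in endothelial nuclei. The endothelial list summed to 1149 CPM in these fibroblasts, and the part of endothelial RNA in the Kcnc2 value was not tested.

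Endothelial nuclei, 16664 of them in the aging matrix, had few raised members. Kcnc2 was at 176 CPM (171 to 181) there, 8.95 times the median, with 269.6, 168 and 168 CPM with suffixes 1, 2 and 3, and 2622 nuclei (15.7%) had a UMI. In the first matrix it was at 62.3 CPM (43.1 to 87) from 34 UMIs and, at 3.99 times the median, just under the rule. Kcnq1 was raised in the aging matrix at 35.8 CPM (33.7 to 38), a call lost without suffix 1 or 3, and had 34.8 CPM (20.9 to 54.3) in the first matrix. Kcna5, the Kv1.5 gene, reached 28.5 CPM (26.6 to 30.5) in endothelial and 22.5 CPM (16 to 30.9) in smooth muscle nuclei of the aging matrix, and was not raised in either. By library it had 24, 13 and 41.1 CPM with suffixes 1, 2 and 3 in endothelial nuclei, highest with suffix 3, and 28.2, 13.6 and 15.1 CPM with suffixes 1, 2 and 3 in smooth muscle, where suffix 3 was below the endothelial level.

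The channel genes best known from endothelium were low in these nuclei. Kcnj2 was at 1.80 CPM (1.35 to 2.35), Kcnn3 (SK3) at 2.38 CPM (1.85 to 3.00) and Kcnn4 (IK) at 2.51 CPM (1.97 to 3.15) over 29456371 UMIs. Kcnn3 was higher in pericytes, at 20.5 CPM (16.9 to 24.6), without reaching the rule. Kcnk6, a two-pore gene, was at 19 CPM (17.5 to 20.7) in endothelial nuclei and 36.9 CPM (13.6 to 80.4) in macrophages, whose limits overlap.

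Kcnk13 was the leading member of macrophages in both matrices. It was at 242 CPM (215 to 271) in the first matrix, with 394 CPM with suffix 1 and 212 CPM with suffix 2, and at 529 CPM (423 to 654) in the 84 macrophages of the aging matrix. Outside macrophages and Schwann nuclei it had at most 7.32 and 8.34 CPM. In the first matrix 3 more members were raised in macrophages, Kcnq1 at 50.6 CPM (38.9 to 64.8), Kcnk6 at 40.2 CPM (29.8 to 53) and Kcnab2, a Kv1 beta subunit, at 24.1 CPM (16.3 to 34.4). Kcnq1 was higher in pericytes and Kcnab2 in T lymphocytes, and all 3 calls were lost without suffix 2, when fewer than 20 UMIs of each were left. The levels of Kcnq1 and Kcnk6 were not lower with suffix 1, at 82.7 CPM with suffix 1 and 44.3 CPM with suffix 2 for Kcnq1 and 77.9 CPM with suffix 1 and 32.7 CPM with suffix 2 for Kcnk6. Kcnn4 had 15.3 CPM (9.19 to 23.8) and Kcnj2 0.803 CPM in macrophages of the first matrix.

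In the 134 T lymphocytes Kcnq5 was the only member called raised, at 1098 CPM (969.9 to 1239) and 26.9 times the median. It was counted in 62 nuclei, none with more than 16 UMIs, and stood at 648 CPM with suffix 1 and 1169 CPM with suffix 2, where suffix 1 had 13 nuclei. At 500 UMIs per nucleus 32.1% (24.3 to 40.7%) of T lymphocytes held a UMI, against 1.78% (0.717 to 3.63%) of macrophages and 0.676% (0.553 to 0.817%) of adipocytes. Pericyte markers were low in the T lymphocytes, with 6 of 10 detected, 74.9 CPM in sum (Steap4 highest at 29.1 CPM) and Higd1b, Vtn, Cox4i2 and Ndufa4l2 at 0, and Kcnj8 had 8.32 CPM. Skeletal muscle markers summed to 337 CPM, led by Ttn at 196 CPM, and Kcnma1 had 8.32 CPM. Kcnq5 was at 0.270 of its pericyte and 0.712 of its skeletal muscle level, where the 2 marker lists were at 0.0138 and 0.00357.

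Kcnn4, the calcium-activated channel of activated lymphocytes, was at 74.9 CPM (44.4 to 118), Kcnk5 at 70.7 CPM (41.2 to 113) and Kcnab2 at 70.7 CPM (41.2 to 113). They had 18, 17 and 17 UMIs, under the 20 that the rule needs, and each was 12.7 to 13.8 times the median of the other types. Kcna3, the Kv1.3 gene for which T cells are known, had 0 UMIs in the 134 nuclei, which allows up to 12.5 CPM, so a level below that is not excluded at this depth.

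Of 23 partner genes of potassium channels and potassium transport listed beside the family, 21 and 20 had 20 UMIs in the matrices. Pericytes of both matrices had the same 4 of them raised, where 3.29% and 2.39% of all genes were. These were Abcc9, the pump subunits Atp1b1 and Atp1b2, and Slc12a2, the sodium-potassium-chloride cotransporter, which was at 1175 CPM (1107 to 1247) and 1123 CPM (1095 to 1151). Skeletal muscle had 6 raised, where 3.63% of all genes were, among them Lrrc38, a BK gamma subunit, at 94 CPM (79.4 to 111), and Dpp6, a Kv4 partner, at 50.5 CPM (40 to 63). Lrrc52, another BK gamma subunit, Atp1b1 and Abcc9 were also raised there. Lrrc38 had 0 UMIs in smooth muscle, and Kcnmb1 had 0 in skeletal muscle. The 2 muscle types come from different matrices, and Kcnmb1 had under 20 UMIs in the first and was not tested there. Its smooth muscle call rested on few UMIs and was lost without suffix 1 and without suffix 2. Whether the accessory genes beside Kcnma1 differ between the muscle types was not tested.

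Smooth muscle had Abcc8 raised, the SUR1 gene, at 26.1 CPM (19 to 35), but 40 of its 44 UMIs came with suffix 1, and Kcnj11 beside it had 9 UMIs. Atp1b2 was raised in Schwann nuclei, at 112 CPM (93.5 to 133). Slc12a7, a potassium-chloride cotransporter, was raised in adipocytes of the aging matrix at 110.3 CPM (101 to 120.2) and in T lymphocytes of the first at 137 CPM (94.5 to 193). Endothelial nuclei, fibroblasts and macrophages had none of the listed partners raised in either matrix, where 1.68 to 4.13% of all genes were raised, which over 20 or 21 genes comes to fewer than 1.

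Calls in the 5 types that both matrices share were compared as shares of each list. Pericytes had 6 genes in common, 85.7% of those of the first matrix and 100% of those of the aging matrix, where 62.2% and 84.6% of all raised genes in pericytes were common. Fibroblasts had 4 (Kcna2, Kcnb2, Kcnd3 and Kcnt2), 80% and 66.7%, against 63.7% and 69.2% of all raised genes, but the calls of Kcna2 in the aging matrix and of Kcnb2 and Kcnd3 in both were lost when 1 library was left out. Adipocytes had 2 (Kcnk3 among them), 100% and 66.7%, against 87.5% and 35.8% of all raised genes. Macrophages had Kcnk13 in common, 25% and 100%, against 36.7% and 89.4% of all raised genes, and endothelial nuclei 1 gene, 100% and 33.3%, against 57.8% and 78.3% of all raised genes. With 1 to 7 members in a list, these shares are not results about the family. The matrices share no sample, but the median of other types that the rule uses is taken over different types in each, with skeletal muscle and T lymphocytes in one and smooth muscle and Schwann nuclei in the other.

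Libraries of the same matrix were compared within adipocytes, with a gene counted as different where its CPM ratio was 2-fold or more either way, it had 20 UMIs over both, and the exact 95% binomial limits of the ratio left out 1. Of the 58 members with enough UMIs in adipocytes of the first matrix 30 differed (51.7%, against 37.3% of 17094 genes), 24 higher and 6 lower with suffix 2. In the aging matrix 9 of 18 differed between suffixes 2 and 1 (against 17.2% of genes), 8 of 16 between 3 and 1 (against 12.9%) and 4 of 16 between 3 and 2 (against 8.65%). The median ratio of genes with 200 UMIs was 0.776 for suffix 2 over 1 in the first matrix, so a typical gene was lower there, and 0.809, 0.870 and 1.08 for the pairs of the aging matrix. With each pair scaled to a median ratio of 1, 30 members differed in the first matrix, 27 higher and 3 lower, against 32.6% of all genes. After scaling, 10 differed between suffixes 2 and 1 of the aging matrix, 6 higher and 4 lower, against 18.3% of all genes, where the unscaled split was 3 and 6. These counts compare 1 library with another and have no replicate check.

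Among the members that were higher with suffix 2, Kcnk3 had a ratio of 2.01 (1.98 to 2.04), from 27510 and 34433 UMIs. Kcnc2 had 3.37 (3.07 to 3.70), Kcnj15, an inward rectifier gene, 27.8 (21.1 to 37.4) and Kcnma1 28.2 (22.2 to 36.3). Kcnma1, Kcnq5, Kcnn2, Kcnj2 and Kcnc1, 5 members of the skeletal muscle set, were higher with suffix 2. Kcnd2 of the same set was lower, a call lost after scaling. Also higher were the skeletal muscle markers in the same adipocyte nuclei, which summed to 258 CPM with suffix 2 (10 of 10 detected, Ttn at 166 CPM) against 7.40 CPM with suffix 1 (8 of 10, Ttn at 2.93 CPM, Myh2 and Cacna1s at 0). Kcnma1 stood at 28.6 CPM there, 0.00932 of the skeletal muscle level of that library, and Kcnq5 at 0.0155, where the marker list was at 0.00272. A single adipocyte nucleus held 138 of the 831 Kcnma1 UMIs. Their part in the adipocyte values was not tested.

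Kcnj15 is not a skeletal muscle member. It stood at 0.752 CPM in adipocytes of suffix 1 and 20.9 CPM in those of suffix 2 of the first matrix, and at 0.501, 7.07 and 27.3 CPM with suffixes 1, 2 and 3 in those of the aging matrix, so its level in adipocytes ranged widely over libraries. Every other type had at most 12.8 CPM, a level above that of adipocytes with suffix 1 of either matrix and suffix 2 of the aging matrix. Kcnj15 was not raised in any type of either matrix. Lower with suffix 2 were Kcnd2 (0.396 (0.344 to 0.455)), Kcnn1, a small-conductance calcium-activated channel gene (0.215 (0.143 to 0.312)), Kcnj11 (0.445 (0.249 to 0.751)), Kcnk4, Kcnv2 and Kcnab3os. With the pair scaled to a median ratio of 1, only Kcnn1, Kcnv2 and Kcnab3os were still called lower. Kcnd2, Kcnj11 and Kcnk4 were then less than 2-fold lower and lost the call. In the aging matrix Kcnd2 was 0.185 (0.123 to 0.272) for suffix 2 over 1 and 0.157 (0.0767 to 0.287) for 3 over 1, and Kcnrg 0.270 (0.162 to 0.431) and 0.0864 (0.0175 to 0.261). Kcnk3 did not differ by the rule in any pair of the aging matrix, with ratios of 1.03 (0.946 to 1.13), 0.995 (0.882 to 1.12) and 0.962 (0.853 to 1.08).

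**Figure D5:**
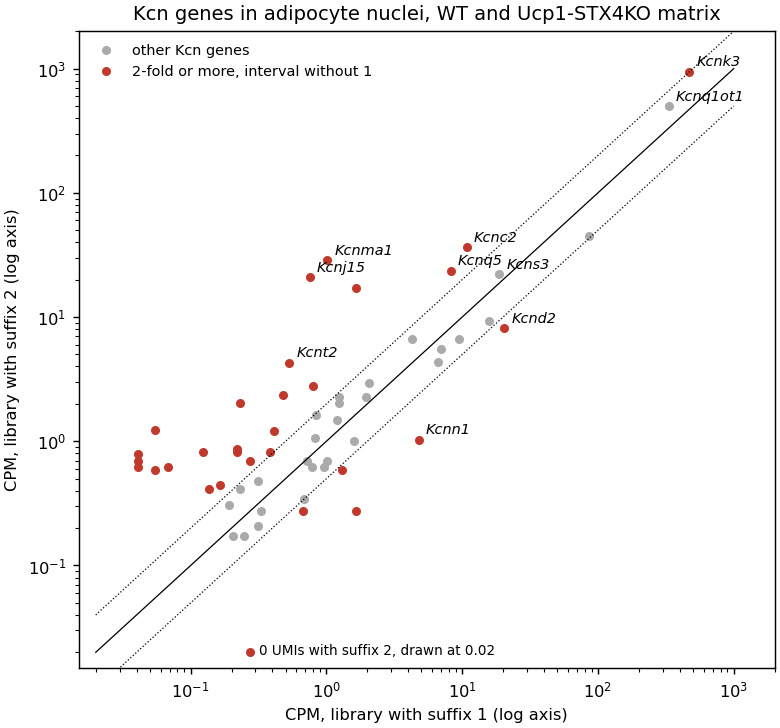
Each point is a Kcn gene with 20 or more UMIs in adipocyte nuclei of the WT and Ucp1-STX4KO matrix, with its CPM in the library with suffix 1 on the horizontal and suffix 2 on the vertical log axis. The solid line marks equal levels, the dotted lines 2-fold differences, and red points the 30 genes that differed by the rule. Kcnma1 and Kcnj15 lie far above the line, Kcnn1 and Kcnd2 below it, and Kcnk3 at the 2-fold line.

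Several members were near the limit of counting. Kcnj11 had at most 14.7 CPM in any type with 50 nuclei of the first matrix and 5.34 CPM in the aging matrix, Kcnj3 at most 9.59 and 1.67 CPM, and Kcnh2, the hERG homolog, at most 0.803 and, in smooth muscle, 14.8 CPM (9.60 to 21.9). Kcna4, Kcna3, Kcna10, Kcne1, Kcne2, Kcnk1, Kcnk9, Kcnk18, Kcnj1, Kcnj4, Kcnj5 and Kcnj9 had under 20 UMIs in each matrix, as did Kcne1l, Kcnf1, Kcng1, Kcnh3, Kcnk15, Kcnk16, Kcns1, Kcns2, Kcnv1, Kcnmb4os1 and Kcnmb4os2. At the other end Kcnq1ot1 was counted in every type, at 366 to 756 CPM in the 7 types of the first matrix and 83.3 to 515 CPM in those of the aging matrix, and was raised in none. Without it, the summed Kcn level was 845 and 1015 CPM in adipocytes and 608 and 634 CPM in endothelial nuclei, against 5719 and 7726 CPM in pericytes, 5914 CPM in skeletal muscle, 6542 CPM in Schwann nuclei and 4493 CPM in smooth muscle. Single genes gave much of these sums, so they do not show a difference shared by the family. Kcnq5 gave 4061 and 6203 CPM in pericytes, Kcnma1 3049 CPM in skeletal muscle and Kcna1 2865 CPM in Schwann nuclei. Kcnk3 gave 606 and 495 CPM in adipocytes.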

How the data were processed

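Nuclei sorted from iBAT were sequenced in 5 libraries with the 10x 3′ chemistry. Per the labels and the study's methods, alignment by the authors was to mm10 in Cell Ranger 6.1.2, and Seurat 4.1.0 followed. The deposited values are unnormalized counts of UMIs by gene and nucleus, in 2 matrices, and whether strand was used in counting is not given in the sources used here. The study states a range of 200 to 2000 UMIs and 100 to 3000 genes per nucleus. Only 2763 of the 20307 nuclei of the first matrix lie inside it, all with suffix 2, so here only the lower limits were applied.

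Nuclei were gated by 12 lists of markers outside the family. A nucleus entered a type with at least 3 markers detected, a summed list level, less the library's median in nuclei of other types, of at least 0.3 of that in clear nuclei and every rival list at most 0.5 of the best. In this way 630 and 2508 nuclei of the matrices were left out as mixed and 1590 and 2233 as unassigned, and no doublet caller was run. Sums, exact Poisson and binomial limits and the calls described above were computed in Python 3.11.15 (numpy 2.4.6, scipy 1.17.1, pandas 2.3.3) and checked on simulated counts. The calls were not tests, since each matrix pools samples with 1 library each and no map from suffix to sample. Named are the members raised in a type, at most 6 per type and matrix in order of fold, 19 fixed members and the listed partner genes. Some members and partner genes that this rule names are counted but not reported here. Members named beyond that rule were chosen after their values were seen. The members, lists and thresholds were chosen with earlier results of these data known, and the scoring of the gates was set after the counts were seen. Promoter sequences are from RefSeq on GRCm38.p6, whose starts differ from the ends of the gene intervals given for Abcc9 and Kcnma1. Alternatives changed the gates, the limits on nuclei, the depth, the thresholds and the libraries used.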

Additional observations from a re-analysis of the deposited data

How the results depend on the processing

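Limiting nuclei to the stated range of UMIs and genes left none of suffix 1 of the first matrix. In that matrix 7 members were then raised instead of 23, with only 20 of the 30 called gene and type pairs in types that kept enough nuclei. Kcnk3 in its adipocytes stood at 614 CPM, against 946 CPM in all adipocyte nuclei of suffix 2 and 606 CPM over both libraries. Its call was lost at 3.40 times the median. In adipocytes of the aging matrix Kcnk3 stood at 520 CPM instead of 495. The members differing between adipocyte libraries of the aging matrix fell to 2, 2 and 1 from 9, 8 and 4. With nuclei thinned to 500 UMIs, 15 members were raised in the first matrix, Kcnk3 stood at 615 CPM, 8 members instead of 30 differed between its libraries, and 2, 2 and 0 differed in the aging matrix. With 20 CPM added in place of 5, 14 members were raised in the first matrix. Leaving out each library in turn, 14 to 23 members were raised there, the lowest without suffix 2, where only 19 of the 30 pairs were in types that kept enough nuclei, and Kcnk3 stood at 471 to 946 CPM. With a minimum of 50 UMIs, 17 members differed between the adipocyte libraries of the first matrix, 4 between suffixes 3 and 1 and 2 between suffixes 3 and 2 of the aging matrix. Without the deepest 10% of nuclei, Kcnk3 of the aging matrix stood at 516 CPM and 4 members differed between suffixes 3 and 1. The added CPM and the minimum of 50 UMIs change only the rule, and the other alternatives leave fewer nuclei or UMIs. The cause was not tested beyond that.

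Of the 30 gene and type pairs of the first matrix, 15 were still called after thinning and 19 with a base of the highest other type at a fold of 2, and of the 36 of the aging matrix 25 and 17. Among others, Kcnd3, Kcnj8 and Kcnq5 in pericytes, Kcnt2 in fibroblasts and Kcnk13 in macrophages of the first matrix, and Kcnk3 in adipocytes, Kcnab1 and Kcnma1 in smooth muscle and Kcna1, Kcna2, Kcna6 and Kcnh8 in Schwann nuclei of the aging matrix were called under every alternative run. No paired analysis was possible because the columns carry no replicate numbers.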
